A study of Mus musculus with 3 samples.

Results

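The bone morphogenetic protein (BMP) pathway was described here through 10 genes, chosen by symbol from the 28692 genes of the count tables: the ligands *Bmp4*, *Bmp5*, and *Bmp6*, the receptors *Bmpr1a*, *Bmpr2*, *Acvrl1*, and *Eng*, the inhibitor *Smad6*, and the targets *Id1* and *Id3*. The data were droplet single-cell RNA-Seq (scRNA-Seq) of whole lung from 3 wild-type C57BL/6 mice at P14, an age in the phase when alveoli form. The pups breathed room air from day 1 to day 14 of life, all carried the same genotype, and there was 1 condition, so the comparisons below are between cell types of the same 3 lungs (mice 2, 3, and 4). The study mapped a Notch ligand in lung endothelial cells (ECs) and used these libraries to ask which class of lung cell expresses it, and the same question was asked here of the BMP genes.

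BMP ligands are secreted dimers that bring together type I and type II serine/threonine kinase receptors. The activated type I receptor phosphorylates SMAD transcription factors, which enter the nucleus with a shared partner and switch on targets such as the *Id* genes, while *Smad6*, itself a target, feeds back to block the signal. In the lung the pathway is best known in the vessel wall: germline loss of *BMPR2* underlies heritable pulmonary arterial hypertension, and loss of *ACVRL1* or *ENG* underlies hereditary hemorrhagic telangiectasia.

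On GRCm38 with GENCODE M21 gene models, *Bmp4* (ENSMUSG00000021835) lies at chr14:46383520-46390669 on the minus strand, *Bmp5* (ENSMUSG00000032179) at chr9:75775364-75900310 on the plus strand, and *Bmp6* (ENSMUSG00000039004) at chr13:38345107-38500302 on the plus strand. Among the receptor genes, *Bmpr1a* (ENSMUSG00000021796) is at chr14:34410734-34503341 on the minus strand, *Bmpr2* (ENSMUSG00000067336) at chr1:59763400-59879014, *Acvrl1* (ENSMUSG00000000530) at chr15:101128522-101145336, and *Eng* (ENSMUSG00000026814) at chr2:32646595-32682669, the last 3 on the plus strand. *Smad6* (ENSMUSG00000036867) is at chr9:63953076-64022059 on the minus strand, *Id1* (ENSMUSG00000042745) at chr2:152736251-152737410, and *Id3* (ENSMUSG00000007872) at chr4:136143497-136145755, both on the plus strand. A gene on the opposite strand overlaps *Bmp4*, *Bmp5*, *Bmp6*, *Bmpr1a*, *Acvrl1*, and *Eng* (for *Bmp6* it is *Txndc5* among others, and for *Eng* it is *Fpgs*), and how the counting used strand is not given in the sources used here.

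The sequences just upstream of *Smad6*, *Eng*, and *Bmp4* are shown because these genes were higher in arterial-like or venous-like than in Aplnr-type capillary ECs, as described below, and because these bases lie outside their gene models. *Id1* and *Id3* were higher there too, but no sequence is printed for *Id1*, and the 250 bases for *Id3* lie inside its GENCODE model. Each run holds the 250 bases before the RefSeq start of the gene, read 5′ to 3′ on the gene's strand of GRCm38.p6: chr9:64022060-64022309 for *Smad6*, chr2:32646345-32646594 for *Eng*, and chr14:46390670-46390919 for *Bmp4*. Capitals mark matches, on either strand, to the SMAD motifs GGAGCC and GTCTG.
Smad6: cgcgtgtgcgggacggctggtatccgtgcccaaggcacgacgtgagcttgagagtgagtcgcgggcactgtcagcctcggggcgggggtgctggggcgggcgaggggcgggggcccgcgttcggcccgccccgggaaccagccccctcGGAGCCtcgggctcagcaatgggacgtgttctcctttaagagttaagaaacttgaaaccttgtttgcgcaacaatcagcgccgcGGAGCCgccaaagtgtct
Eng: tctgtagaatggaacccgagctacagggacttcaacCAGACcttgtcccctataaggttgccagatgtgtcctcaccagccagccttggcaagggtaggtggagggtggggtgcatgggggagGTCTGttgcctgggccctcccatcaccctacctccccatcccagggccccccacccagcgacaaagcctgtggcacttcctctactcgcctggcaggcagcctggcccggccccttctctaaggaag
Bmp4: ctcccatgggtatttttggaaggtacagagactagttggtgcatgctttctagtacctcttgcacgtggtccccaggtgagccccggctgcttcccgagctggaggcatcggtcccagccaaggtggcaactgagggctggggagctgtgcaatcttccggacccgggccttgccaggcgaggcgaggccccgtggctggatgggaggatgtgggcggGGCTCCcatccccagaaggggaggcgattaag

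Over 300 bases (250 before to 50 after the start), the RefSeq table held 8 of the 10 genes. GGAGCC occurred in *Smad6* (2 matches), *Bmp4* (1), and *Id3* (1), and in 30.8% of all 32851 promoters of that length. GTCTG occurred in *Eng* (2 matches), *Id3* (2), *Bmp5* (1), and *Bmp6* (1), against 49.6% of all promoters. The palindrome GGCGCC occurred once each in *Bmpr1a* and *Bmpr2*, against 11.9% of all promoters. None of the 3 motifs contains another. A match describes the letters of the window and says nothing of binding. GC content of the windows was between 43.3% (*Bmp5*) and 79.3% (*Bmpr1a*), with a median of 52.7% over all promoters.

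The 3 libraries held 3034 to 3475 cells and 22476491 to 25192427 unique molecular identifiers (UMIs, each a counted RNA molecule), and 7642 of 9644 cells passed the filter. Clusters named from marker genes gave 951 ECs, 1285 epithelial, 1539 stromal, and 3025 immune cells, and 842 cells stayed unnamed. The median UMI number per cell was 7624 in ECs, 16290 in epithelial, 10528 in stromal, and 3871 in immune cells. The 5 EC markers (*Pecam1*, *Cdh5*, *Cldn5*, *Egfl7*, *Ramp2*) summed to 9547 to 9920 CPM (UMIs of a gene scaled to a common total per sample) in the ECs of the 3 mice and to at most 215 CPM in any other class. Levels below are CPM of UMIs summed per mouse and cell type. Pairs of libraries shared 2 to 5 cell barcodes. Among the ECs, 143 could not be given a subtype. They were shallow (median 1059 UMIs), and 1 of their 2 sub-clusters (81 cells) carried 1920 to 5240 CPM of the 5 stromal markers, against 710.6 CPM in all ECs. In bulk-like sums of this kind, a different number of expressing cells and a different amount of RNA per cell give the same CPM.

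ECs carried *Bmpr2*, *Acvrl1*, *Eng*, the inhibitor *Smad6*, and the targets *Id1* and *Id3* at higher levels than the other 3 classes, while *Bmp5* and *Bmpr1a* were lowest or near lowest in ECs (plot of members in 4 classes). Of the 10 genes, 7 were higher and 2 lower in ECs than in epithelial cells, again 7 higher and 2 lower against stromal cells, and 9 higher and none lower against immune cells. These classes differ in most of their genes: 66.5% of all genes tested passed the same threshold against epithelial cells, 55.6% against stromal cells, and 69.4% against immune cells, so sizes and directions are given gene by gene. The 3 comparisons share the EC sums. The 3 mice did not overlap between ECs and another class except for *Bmp4* against stromal cells and *Bmpr1a* against immune cells (exact 2-sided permutation p = 0.9 and p = 0.6), and with 3 against 3 the smallest p such a test can give is 0.1, reached by the other pairs. Overlap was checked for the 10 genes only. The share of all genes without overlap is not known, so this describes levels and sets the 10 genes apart from no others.

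**Figure D1:**
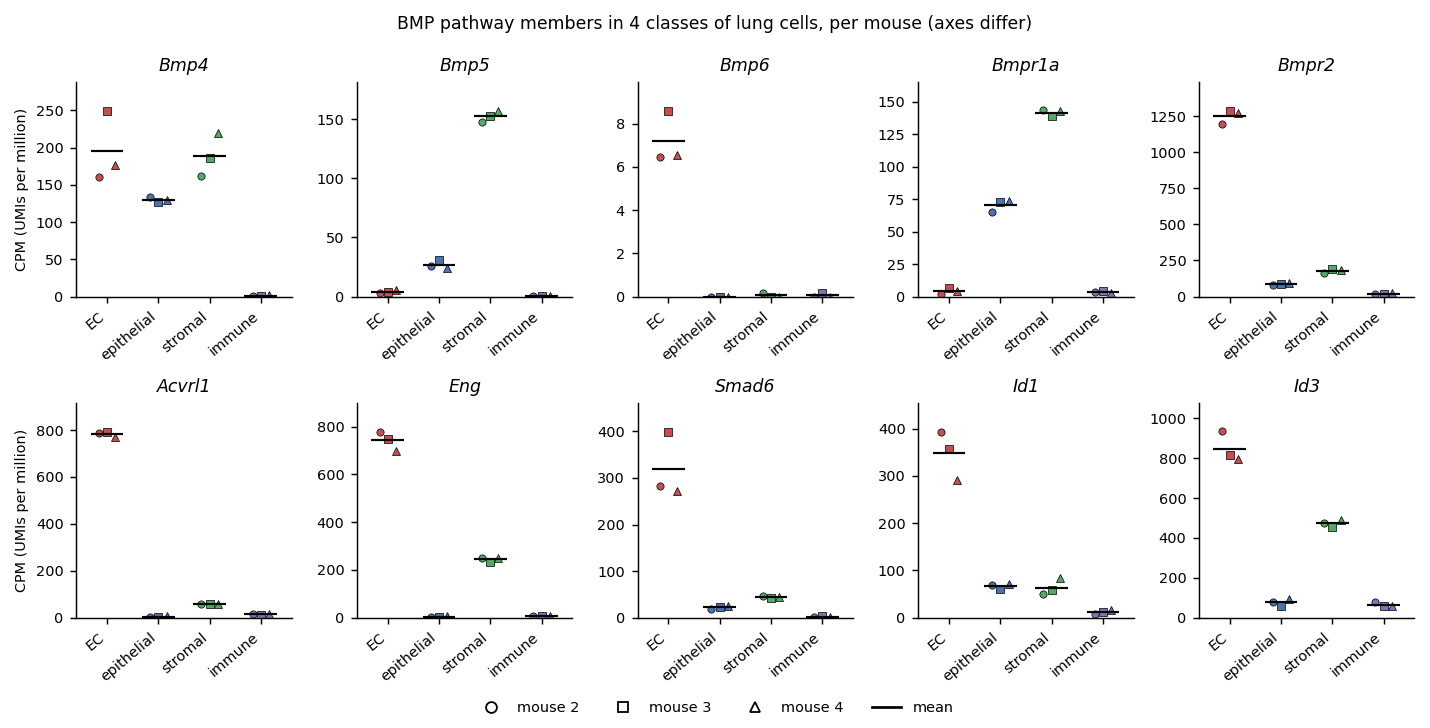
CPM of each of the 10 genes (y axes, which differ between panels) in ECs and in epithelial, stromal, and immune cells, with 1 symbol per mouse and a line at the mean. *Bmpr2*, *Acvrl1*, *Eng*, *Smad6*, *Id1*, and *Id3* are highest in ECs in each mouse, *Bmp5* and *Bmpr1a* in stromal cells, and *Bmp6* is close to 0 outside ECs.

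The 3 ligands had 3 different patterns. *Bmp4*, which guides lung branching and vessel growth, measured 161, 250, and 176 CPM in the ECs of mice 2, 3, and 4, 134, 127, and 130 CPM in epithelial cells, and 162, 187, and 220 CPM in stromal cells. It was thus broadly present outside the immune class (0.29, 0.92, and 1.99 CPM), and ECs overlapped with stromal cells. The log2 fold change of ECs was 0.11 ± 0.15 (SE) against epithelial cells (edgeR, adjusted p = 0.524) and -0.07 ± 0.15 against stromal cells (adjusted p = 0.71), whereas against immune cells it was 7.23 ± 0.29 (adjusted p = 1e-11). The first of these depended on scaling: without TMM it was 0.58 ± 0.15 (adjusted p = 0.00259), next to a median of 0.50 over all genes, and over all 18 settings tried its adjusted p was between 0.00259 and 0.947.

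*Bmp5*, a ligand of the subgroup that also holds *Bmp6* and *Bmp7*, was a stromal gene in these lungs. Its stromal levels were 148, 152, and 157 CPM, its epithelial levels 25.8, 30.6, and 24.0 CPM, and its EC levels 2.93, 3.91, and 5.47 CPM. Stromal cells held 79.7% of all *Bmp5* UMIs and ECs 1.19%, while the classes held 26.4% and 14.5% of all UMIs. The log2 fold change of ECs was -5.30 ± 0.15 against stromal cells (adjusted p = 7.09e-13) and -3.14 ± 0.18 against epithelial cells (adjusted p = 4.58e-10). Of the 40 *Bmp5* UMIs in ECs, 30 lay in the 143 ECs without a subtype, all of them in the sub-cluster with stromal markers. Without those 143 cells the fold change against stromal cells was -7.15 ± 0.19, and the higher level against immune cells (3.21 ± 0.45, adjusted p = 1.43e-05) was no longer called (1.36 ± 0.62, adjusted p = 0.0859).

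*Bmp6* was the rarest of the ligands and was found almost entirely in ECs. It gave 22, 22, and 24 UMIs in the ECs of the 3 mice (6.45, 8.60, and 6.56 CPM), 0 in epithelial cells, and 1 each in stromal and immune cells. ECs therefore held 86.1% of its 79 UMIs in kept cells, and a further 9 UMIs lay in unnamed clusters. Pooled over mice, the EC level of 7.06 CPM was at least 54.4-fold higher than the epithelial level, taking 3 UMIs over the epithelial class as the limit that a count of 0 allows. Against stromal cells the ratio was 124 (95% counting interval 21.5 to 4965), and against immune cells it was 98.7 (17.1 to 3956). A *Bmp6* UMI was seen in 6.37% ± 1.14 (SD, n = 3) of ECs (median 7624 UMIs) and in 0.038% ± 0.065 of B-cell-like cells (median 3961 UMIs), and at 1000 UMIs per cell in 0.632% ± 0.182 and 0.009% ± 0.016.

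The 4 receptor genes split in their cell class. *Bmpr1a*, a type I receptor, was almost missing from ECs and present in stromal and epithelial cells, whereas *Bmpr2*, *Acvrl1*, and *Eng* were highest in ECs. *Bmpr1a* measured 2.34, 6.64, and 4.65 CPM in ECs, 65.2, 73.1, and 73.5 CPM in epithelial cells, and 143, 139, and 143 CPM in stromal cells. Its EC level stayed below each of the other 2 non-immune classes in every mouse, with log2 fold changes of -5.12 ± 0.16 against stromal (adjusted p = 1.89e-12) and -4.47 ± 0.17 against epithelial cells (adjusted p = 5.4e-12). Against immune cells (3.47, 4.46, and 2.74 CPM) the difference was 0.00 ± 0.30 (adjusted p = 1). Here 19 of the 42 EC UMIs came from the 143 ECs without a subtype, and without those cells the value was -0.74 ± 0.29 (adjusted p = 0.0472), so the sign of this last comparison turns on them.

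*Bmpr2*, the type II receptor, was found in every class but most of all in ECs. It measured 1193, 1289, and 1271 CPM in ECs, 78.8, 86.4, and 91.2 CPM in epithelial cells, 164, 192, and 181 CPM in stromal cells, and 19.7, 16.8, and 22.4 CPM in immune cells. The log2 fold change of ECs was 2.69 ± 0.10 against stromal cells (adjusted p = 1.09e-11), 3.41 ± 0.11 against epithelial cells (adjusted p = 7.93e-13), and 5.76 ± 0.12 against immune cells (adjusted p = 5.14e-14). ECs were 12.4% of the kept cells and held 65.5% of all *Bmpr2* UMIs.

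*Acvrl1*, the type I receptor of vascular endothelium, was sharper in its class. ECs measured 786, 793, and 769.5 CPM, stromal cells 59.0, 58.8, and 59.1 CPM, immune cells 16.5, 10.3, and 15.7 CPM, and epithelial cells 1.28, 1.23, and 5.89 CPM. The EC and stromal levels hardly varied between mice, while epithelial cells of mouse 4 stood above those of mice 2 and 3. ECs held 80.5% of its UMIs, and the log2 fold change was 3.62 ± 0.21 against stromal cells (adjusted p = 9.22e-10) and 7.55 ± 0.28 against epithelial cells (adjusted p = 5.08e-12).

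*Eng*, the coreceptor endoglin, had a second source in the stroma. ECs measured 778, 747, and 699 CPM, stromal cells 248, 232, and 252 CPM, epithelial cells 3.60, 2.99, and 7.71 CPM, and immune cells 4.92, 4.92, and 8.72 CPM. The log2 fold change of ECs against stromal cells was 1.49 ± 0.16 (adjusted p = 8.84e-07), and stromal cells held 34.7% of the *Eng* UMIs against 57.5% in ECs.

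*Smad6*, the inhibitory SMAD, measured 283, 399, and 272 CPM in ECs, 47.0, 41.6, and 44.4 CPM in stromal cells, 19.2, 22.4, and 26.1 CPM in epithelial cells, and 2.02, 2.77, and 2.24 CPM in immune cells. Mouse 3 was the highest of the EC samples, and the classes did not overlap. The log2 fold change of ECs was 2.72 ± 0.13 against stromal cells (adjusted p = 1.57e-10) and 3.35 ± 0.14 against epithelial cells (adjusted p = 1.62e-11).

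The targets *Id1* and *Id3* encode helix-loop-helix proteins that lack a DNA-binding region and hold partner transcription factors inactive. *Id1* measured 394, 358, and 290 CPM in ECs, 70.0, 61.4, and 70.4 CPM in epithelial cells, 49.3, 57.8, and 83.8 CPM in stromal cells, and 8.68, 12.9, and 16.7 CPM in immune cells. *Id3* measured 935, 814, and 795 CPM in ECs and 474, 456, and 490 CPM in stromal cells, with 80.2, 57.4, and 94.3 CPM in epithelial and 78.4, 58.4, and 58.8 CPM in immune cells. Both were higher in ECs of every mouse, with a smaller difference from stroma for *Id3* (log2 fold change 0.73 ± 0.16, adjusted p = 0.00122), while *Id1* differed by 2.33 ± 0.17 (adjusted p = 1.75e-08). A list of 12 early stress genes summed to 1507 to 1945 CPM in ECs, 1179 to 1609 CPM in stromal, 375 to 545 CPM in epithelial, and 2648 to 2722 CPM in immune cells. The part of this list in the *Id* levels was not tested.

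The 42 other genes of the pathway list held ligands, receptors and coreceptors, SMADs, inhibitors, and targets. Of the 35 tested, 13 were higher and 11 lower in ECs than in epithelial cells, 7 higher and 21 lower than in stromal cells, and 26 higher and 1 lower than in immune cells. The share called was 68.6%, 80.0%, and 77.1%, against 66.5%, 55.6%, and 69.4% of all genes, so against epithelial cells it was near that of all genes. The median log2 fold change of the 35 was 0.36, -1.34, and 2.45 in these 3 comparisons, against 0.04, -0.06, and -0.02 over all genes tested. *Tmem100*, listed here with the receptors and coreceptors, had a mean of 1122 CPM in ECs, 33.5 in stromal, 5.8 in epithelial, and 6.87 in immune cells. *Hey1*, a listed target shared with Notch signaling, had 159, 8.77, 1.92, and 1.64 CPM. The listed targets other than *Hey1* did not share this pattern. *Id2*, *Id4*, and *Atoh8* were lower in ECs than in epithelial cells, and *Id4* and *Atoh8* were also lower than in stromal cells. Against immune cells *Id4* and *Atoh8* were higher in ECs. In the stroma, the ligands *Bmp3* (74.9 CPM, against 1.21 CPM in ECs) and *Gdf10* (42.5 against 0.560 CPM) were higher than in ECs. *Gdf2* and *Bmp10*, the circulating ligands of the receptor encoded by *Acvrl1*, gave 0 UMIs in each class, which allows up to 0.312 CPM in ECs.

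**Figure D2:**
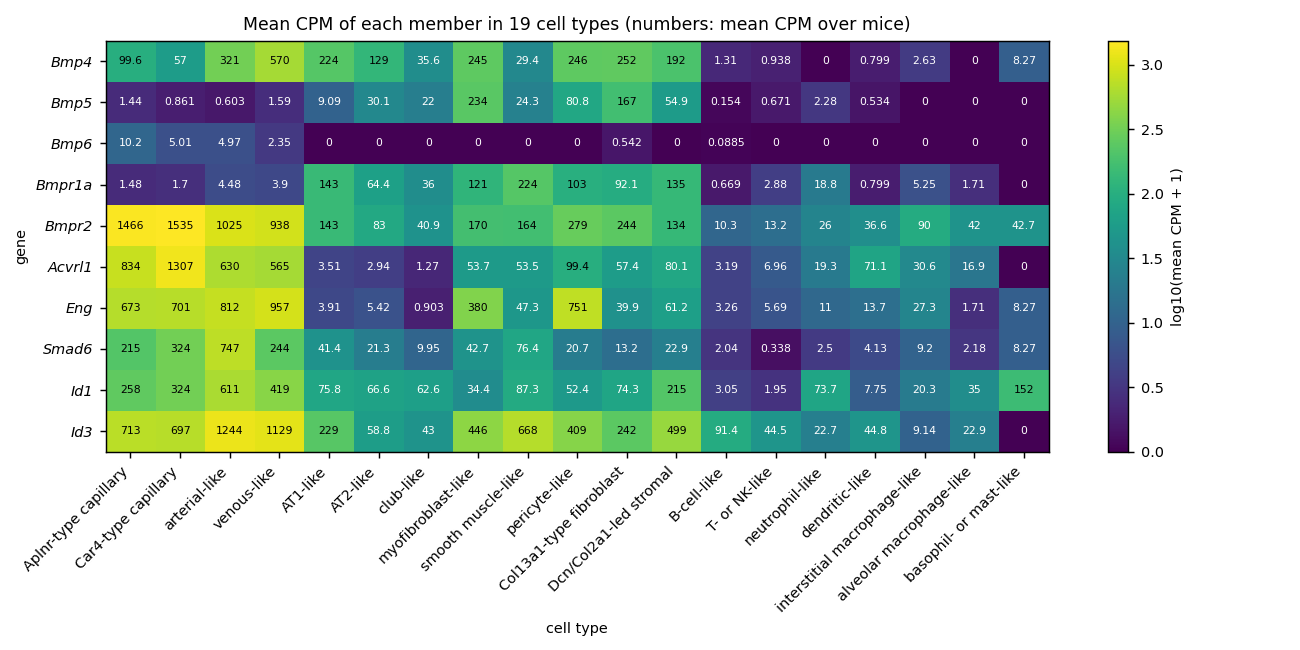
Mean CPM over mice of the 10 genes (rows) in 19 cell groups with at least 10 cells in more than 1 mouse (columns), with the color on a log10(CPM + 1) scale and the mean printed in each cell. *Bmpr1a* and *Bmp5* are low in the 4 EC columns and higher in the stromal columns, the reverse of *Acvrl1*, and *Eng* reaches 751 CPM in pericyte-like cells.

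Within the endothelium, 4 subtypes had enough cells in all mice: 426 Aplnr-type capillary, 96 Car4-type capillary, 158 arterial-like, and 105 venous-like ECs. The 2 capillary types are named for the genes that mark them, an apelin receptor and a carbonic anhydrase. *Bmp4*, *Bmpr2*, *Acvrl1*, *Eng*, *Smad6*, *Id1*, and *Id3* passed the filter on low counts here, and *Bmp5*, *Bmp6*, and *Bmpr1a* did not. Compared with Aplnr-type cells, the larger-vessel types were higher for *Bmp4*, *Eng*, and both *Id* genes and lower for *Bmpr2* and *Acvrl1*. Arterial-like cells joined 2 sub-clusters that differed in *Bmpr2*, with levels given below. All comparisons share the Aplnr-type sums, so they are not independent. Aplnr-type cells were themselves 2 sub-clusters (264 and 162 cells) that differed in *Bmp4*, *Smad6*, and *Eng*, with levels given in the last section. How far the calls below depend on the mix of the 2 was not tested. Each gene's subtype levels are given first, and the calls follow.

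*Bmp4* was highest in venous-like ECs, with 575, 621, and 513 CPM in mice 2, 3, and 4, followed by arterial-like ECs with 248, 380, and 337 CPM. Aplnr-type cells had 70.5, 124, and 105 CPM, and Car4-type cells 49.1, 67.7, and 54.3 CPM. Venous-like cells overlapped with no other type, while the 2 capillary types lay side by side, with the ranges of the 3 mice separated only by the gap between 67.7 and 70.5 CPM.

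*Bmpr2* went the other way. It measured 1398, 1456, and 1545 CPM in Aplnr-type and 1498, 1663, and 1445 CPM in Car4-type cells, and 1023, 1102, and 948 CPM in arterial-like and 875, 1102, and 837 CPM in venous-like cells. Both capillary types lay above both larger-vessel types in every mouse. *Acvrl1* measured 1265, 1304, and 1351 CPM in Car4-type cells, 876, 810, and 815 CPM in Aplnr-type, 647, 677, and 566 CPM in arterial-like, and 548, 624, and 522 CPM in venous-like cells, so the Car4-type cells stood apart from all others. *Eng* ran against *Acvrl1*: it was highest in venous-like cells (936, 1035, and 899 CPM), then arterial-like (823, 807, and 806 CPM), with Car4-type (767, 667, and 668 CPM) and Aplnr-type cells (727, 628, and 663 CPM) overlapping below.

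*Smad6* was an arterial gene, at 711, 904, and 625 CPM in arterial-like cells against 199, 227, and 220 CPM in Aplnr-type, 307, 436, and 229 CPM in Car4-type, and 179, 299, and 255 CPM in venous-like cells. *Id1* measured 676, 584, and 573 CPM in arterial-like, 487, 430, and 339 CPM in venous-like, 382, 318, and 271 CPM in Car4-type, and 305, 231, and 238 CPM in Aplnr-type cells. *Id3* measured 1262, 1187, and 1283 CPM in arterial-like and 1285, 1025, and 1078 CPM in venous-like cells, against 795, 661, and 682 CPM in Aplnr-type and 785, 632, and 673 CPM in Car4-type cells. For *Id3* the larger-vessel types did not overlap with the capillary types, and within each of these pairs the types did overlap.

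**Figure D3:**
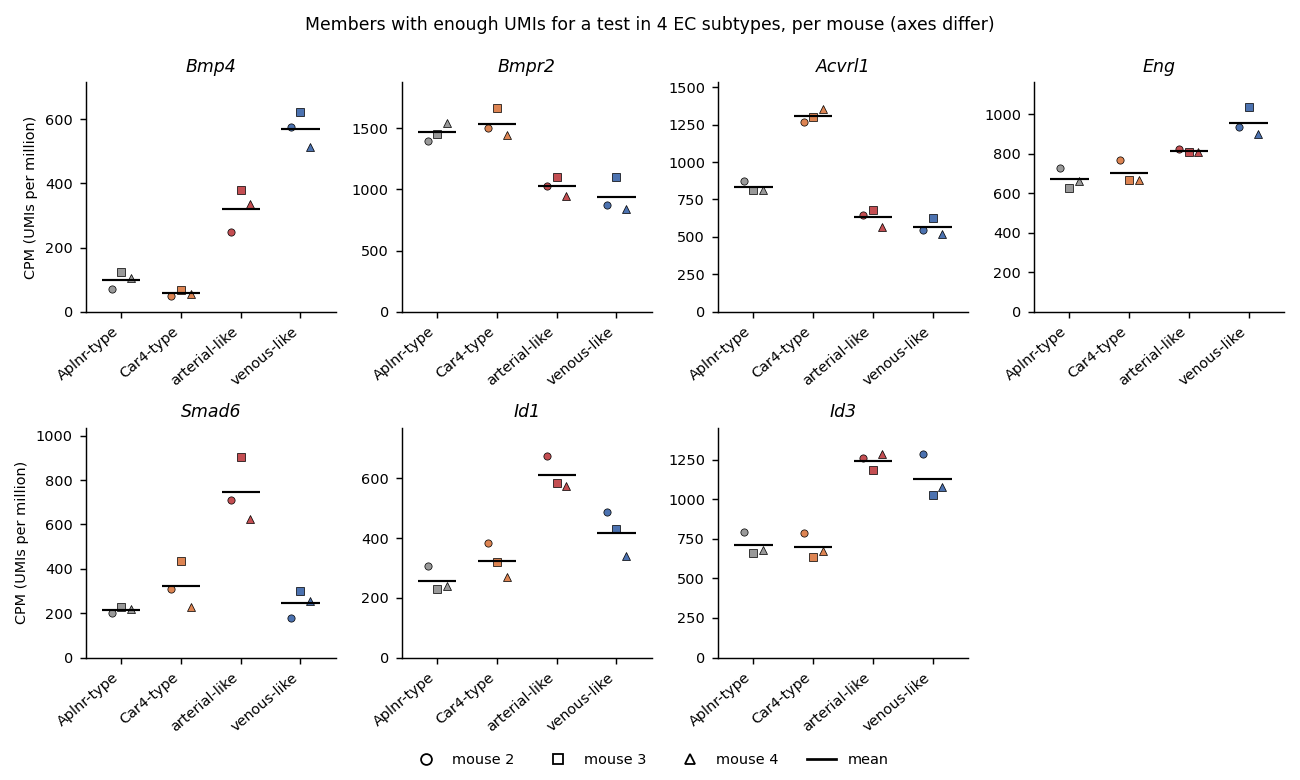
CPM of the 7 genes tested in EC subtypes (y axes, which differ between panels), with 1 symbol per mouse and a line at the mean. *Smad6* stands out in arterial-like cells, *Bmp4* in venous-like cells, and *Acvrl1* in Car4-type cells.

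In arterial-like against Aplnr-type ECs, 5 of the 7 genes were higher and 2 lower, against 22.6% of all genes called in this comparison. The log2 fold change was 1.88 ± 0.17 for *Smad6* (adjusted p = 4.28e-09), 1.80 ± 0.17 for *Bmp4* (adjusted p = 4.12e-09), 1.33 ± 0.15 for *Id1* (adjusted p = 1.1e-07), 0.89 ± 0.12 for *Id3* (adjusted p = 1.83e-06), and 0.36 ± 0.11 for *Eng* (adjusted p = 0.0158). *Bmpr2* was lower by -0.43 ± 0.11 (adjusted p = 0.00427) and *Acvrl1* by -0.32 ± 0.11 (adjusted p = 0.0324). The calls of the 3 smallest changes were not kept in every fit with a mouse left out. Without mouse 4 the calls of *Bmpr2* (-0.34, adjusted p = 0.0852), *Acvrl1* (-0.27, adjusted p = 0.204), and *Eng* (0.34, adjusted p = 0.0986) were lost, and 4 genes remained called. Without mouse 2 that of *Acvrl1* was lost (adjusted p = 0.173), and without mouse 3 that of *Eng* (adjusted p = 0.131). The parts of a single mouse and of the smaller number of mice in these losses were not tested, and the shares of all genes called in these fits are not given here. The call of *Acvrl1* was also lost with doublets removed (adjusted p = 0.0865) and that of *Eng* without TMM (adjusted p = 0.0648). Arterial-like cells were made of 2 sub-clusters, and in sub-cluster 3 (99 cells) the surfactant genes *Sftpc* and *Sftpb*, *Lyz2* (also a leading gene of AT2-like cells here), and the lymphocyte gene *Gzma* were also among the leading genes. Without it all 7 calls held, and the difference of *Bmpr2* was -1.12 ± 0.12 and that of *Acvrl1* -0.63 ± 0.13. *Bmpr2* averaged 1387 CPM in sub-cluster 3 and 610 CPM in the other arterial-like sub-cluster. Leading genes of the latter (59 cells) included *Gja5* and *Dkk2* of the arterial-like markers. They also included *Vwf* and *Selp* of the venous-like and *Lyve1* of the lymphatic-like markers.

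In venous-like against Aplnr-type ECs, 4 of the 7 genes were higher and 2 lower, against 21.5% of all genes. *Bmp4* had the largest change of the 7, 2.65 ± 0.16 on the log2 scale (adjusted p = 3.22e-12), followed by *Id1* (0.80 ± 0.15, adjusted p = 0.000249), *Id3* (0.77 ± 0.12, adjusted p = 1.84e-05), and *Eng* (0.61 ± 0.11, adjusted p = 0.000101). *Bmpr2* (-0.54 ± 0.11, adjusted p = 0.000621) and *Acvrl1* (-0.45 ± 0.11, adjusted p = 0.00285) were lower, the latter without a call when mouse 2 was left out (-0.39, adjusted p = 0.0705). *Smad6* was not called (0.29 ± 0.19, adjusted p = 0.331). The 12 stress genes summed to 1672 to 3083 CPM in venous-like, 1351 to 2202 CPM in arterial-like, 1862 to 1954 CPM in Car4-type, and 1254 to 1467 CPM in Aplnr-type cells, and both their mean and that of *Id1* were lowest in Aplnr-type cells. Their part in the *Id* differences was not tested.

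Between the 2 capillary types, Car4-type cells were higher for *Acvrl1* and *Smad6* and lower for *Bmp4*, 3 of 7 genes against 14.6% of all genes. *Acvrl1* alone of the 3 (log2 fold change 0.66 ± 0.11, adjusted p = 5.16e-05) kept its call when each mouse was left out in turn. *Smad6* (0.61 ± 0.18, adjusted p = 0.0255) lost it without mouse 2 (adjusted p = 0.0599) or mouse 3 (0.37, adjusted p = 0.26), and *Bmp4* (-0.76 ± 0.24, adjusted p = 0.032) lost it without mouse 3 (adjusted p = 0.131) or mouse 4 (adjusted p = 0.243). Without mouse 3, with a stricter cell filter, or with log-normalization before clustering, 1 gene was called, and in the last of these *Bmp4* was at -0.12 (adjusted p = 0.806). *Id1* was at 0.34 ± 0.16 (adjusted p = 0.169) and was called only with the mouse as a block (0.34, adjusted p = 0.0401). *Bmpr2* (0.08 ± 0.11), *Eng* (0.07 ± 0.11), and *Id3* (-0.02 ± 0.12) were not called.

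**Figure D4:**
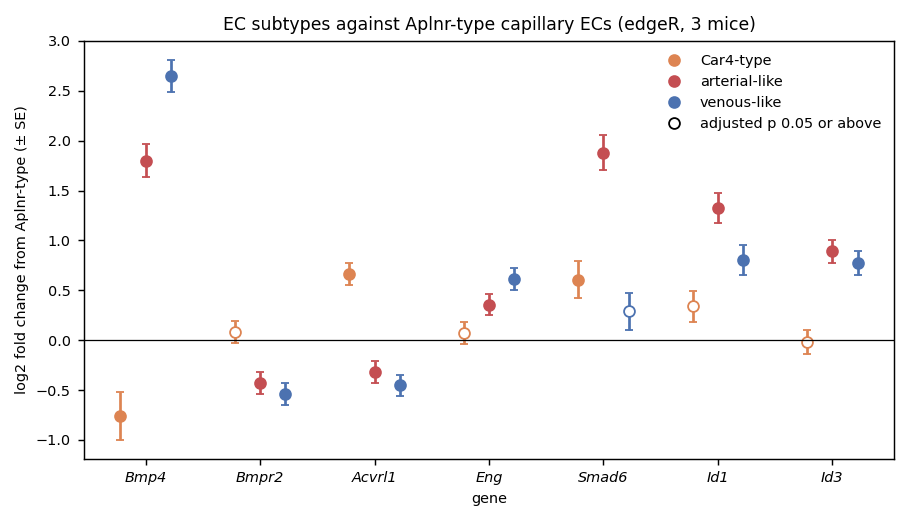
Log2 fold change against Aplnr-type capillary ECs (y axis, bars are ± 1 SE) of the 7 genes in Car4-type, arterial-like, and venous-like ECs from the sums of 3 mice, with open symbols where the adjusted p was 0.05 or above. Arterial-like and venous-like symbols lie on the same side of 0 for each gene, and Car4-type symbols lie near 0 for *Bmpr2*, *Eng*, and *Id3*.

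Of the 3 genes too low for a test in subtypes, *Bmp6* gave 13, 14, and 14 UMIs in Aplnr-type cells (7.90, 14.8, and 7.75 CPM), 2, 0, and 4 in Car4-type, 5, 2, and 1 in arterial-like, and 1 in each mouse in venous-like cells. *Bmp5* and *Bmpr1a* each gave at most 4 UMIs per mouse in any of the 4 subtypes. Lymphatic-like ECs (23 cells, 10 or more in mouse 2 only) carried *Eng* at 899 CPM, *Id3* at 975 CPM, and *Id1* at 355 CPM in that mouse, with 3 *Smad6* UMIs. Doublet scores marked 8 of these 23 cells, against 156 of all 7642, and marked cells were kept, so RNA of other cells may be included.

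Of the 42 other pathway genes, 21 could be tested in EC subtypes. In arterial-like cells 7 were higher and 2 lower (median log2 fold change 0.25, all genes 0.01), in venous-like cells 8 and 3 (0.55, all genes 0.00), and in Car4-type cells 3 and 3 (-0.06, all genes -0.02). The share called was 42.9%, 52.4%, and 28.6% in this order, against 22.6%, 21.5%, and 14.6% of all genes. *Smad7*, the other inhibitory SMAD, was higher in arterial-like cells by 1.21 ± 0.12 (adjusted p = 2.47e-08) and had a mean of 712 CPM there, 546 CPM in venous-like, and 326 CPM in Aplnr-type cells. *Hey1* was higher in arterial-like (1.43 ± 0.13) and lower in venous-like (-3.90 ± 0.30) and Car4-type cells (-2.90 ± 0.26). *Tmem100* was lower in venous-like cells (-2.61 ± 0.16), where the decoy receptor *Bambi* was higher (3.20 ± 0.20, mean 208 against 24.1 CPM).

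In the stroma, levels of the BMP genes differed between types (plot of stromal and alveolar types). Of the 5 stromal groups, 1 is a cluster of 100 cells called here the Dcn/Col2a1-led cluster. All 6 markers of Col14a1-type fibroblasts were found in it, at a sum of 8589 to 9383 CPM against at most 1208 CPM in the other 4, but the cartilage genes *Col2a1*, *Col10a1*, *Col11a1*, and *Acan* were among its 10 leading genes, so it is not given a cell type. Myofibroblast-like cells, which build the alveolar septa, and Col13a1-type fibroblasts carried both *Bmp4* and *Bmp5*, smooth muscle-like cells carried little of either but the most *Bmpr1a* and *Smad6*, and pericyte-like cells carried *Eng* near the EC level. *Bmp5* measured 222, 261, and 220 CPM in myofibroblast-like cells and 161, 178, and 161 CPM in Col13a1-type fibroblasts, 94.7, 36.9, and 111 CPM in pericyte-like cells, 70.7, 26.7, and 67.3 CPM in the Dcn/Col2a1-led cluster, and 26.2, 19.3, and 27.5 CPM in smooth muscle-like cells. The first 2 types overlapped neither with each other nor with the rest. *Bmp4* measured 198, 259, and 277 CPM in myofibroblast-like, 210, 262, and 285 CPM in Col13a1-type, 178, 271, and 289 CPM in pericyte-like, and 229, 141, and 205 CPM in the Dcn/Col2a1-led cluster, which all overlapped, against 41.6, 13.6, and 33.1 CPM in smooth muscle-like cells. *Bmp6* was not tested, since the 5 stromal groups held 1 UMI of it in all.

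**Figure D5:**
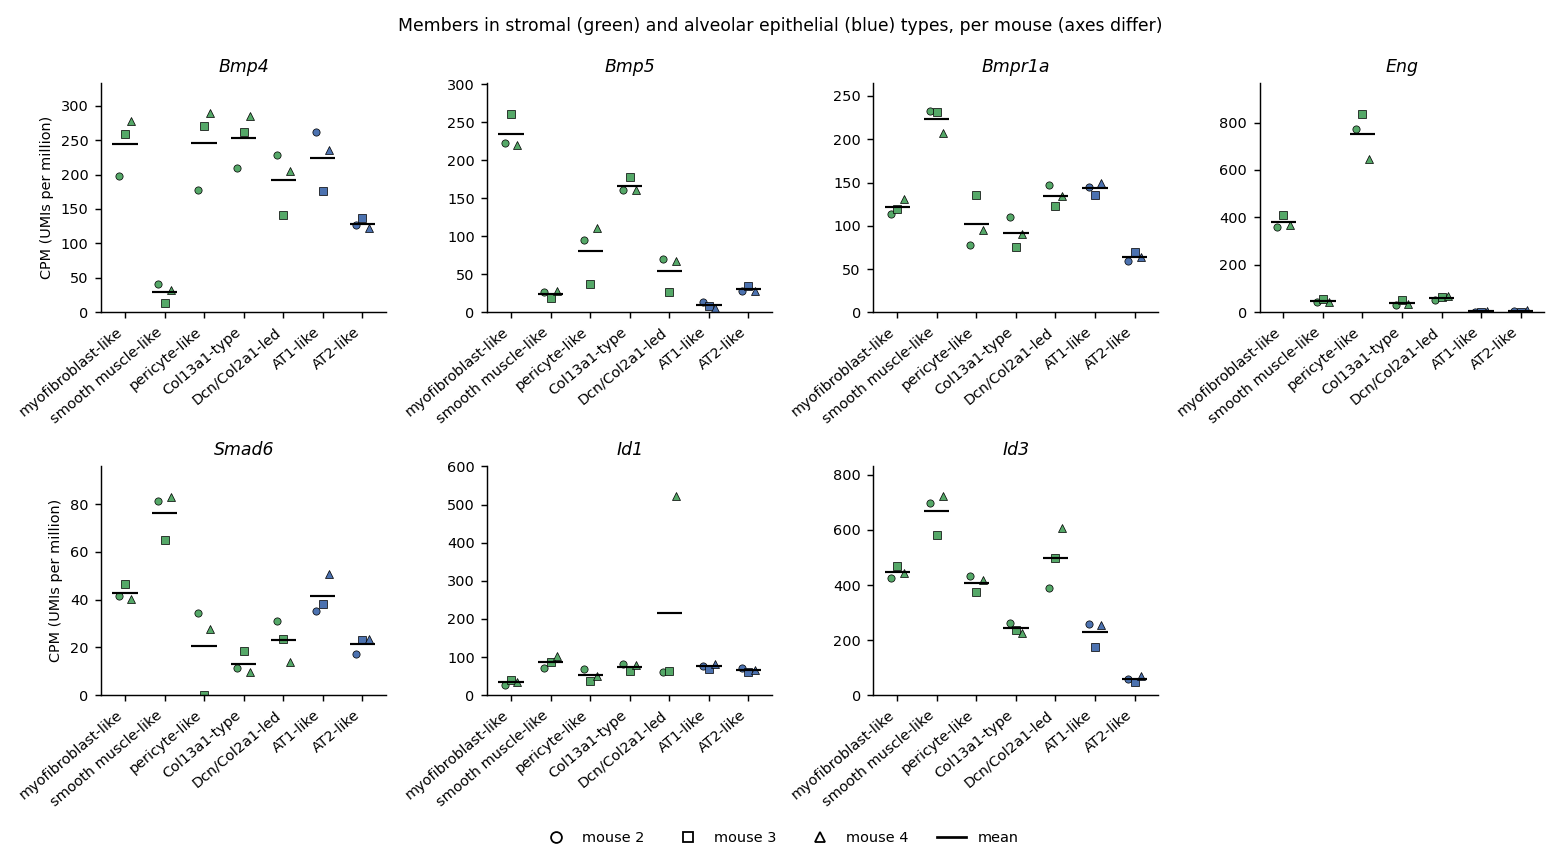
CPM of 7 genes (y axes, which differ between panels) in 5 stromal groups and in AT1-like and AT2-like alveolar epithelial cells, with 1 symbol per mouse and a line at the mean. *Bmp5* is highest in myofibroblast-like cells, *Bmpr1a* in smooth muscle-like cells, and *Eng* in pericyte-like cells, and *Id1* in the Dcn/Col2a1-led cluster is high in mouse 4 alone.

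Each stromal group was compared with the mean of the other 4, over 9 genes. Myofibroblast-like cells were higher for 3 genes and lower for 3, against 28.2% of all genes called. *Eng* (1.85 ± 0.10, adjusted p = 6.23e-12), *Bmp5* (1.71 ± 0.14, adjusted p = 6.7e-09), and *Bmp4* (0.72 ± 0.16, adjusted p = 0.00163) were higher, and *Id1* (-1.53 ± 0.42, adjusted p = 0.0079), *Acvrl1* (-0.53 ± 0.11, adjusted p = 0.00113), and *Bmpr2* (-0.34 ± 0.09, adjusted p = 0.00748) were lower. Without mouse 2 the calls of *Id1* (adjusted p = 0.0675) and *Bmpr2* (adjusted p = 0.0839) were lost, and without mouse 4 that of *Bmpr2* (adjusted p = 0.201), which was also lost without TMM (-0.22, adjusted p = 0.074). *Smad6* was not called (0.47, adjusted p = 0.063) but was with doublets removed (0.72, adjusted p = 0.00322), among other settings. This type was 2 clusters that differed in *Eng*, with means of 559 CPM in one (351 cells) and 223 CPM in the other (454 cells), while *Bmp5* was at 231 and 239 CPM.

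Smooth muscle-like cells were higher for 3 genes and lower for 4, against 32.6% of all genes. *Bmpr1a* measured 232, 231, and 208 CPM, above the other stromal types in every mouse, and its log2 fold change was 1.08 ± 0.11 (adjusted p = 4.1e-08). *Smad6* (81.2, 65.0, and 83.1 CPM) was higher by 1.71 ± 0.18 (adjusted p = 1.43e-07) and *Id3* (700, 583, and 723 CPM) by 0.85 ± 0.10 (adjusted p = 5.64e-07). *Bmp4* (-2.89 ± 0.23, adjusted p = 1.72e-09), *Bmp5* (-2.18 ± 0.22, adjusted p = 5.15e-08), and *Eng* (-1.74 ± 0.14, adjusted p = 1.33e-09) were lower, as was *Acvrl1* (-0.37 ± 0.13, adjusted p = 0.0303), which lost its call without any 1 of the mice (adjusted p = 0.0514 to 0.257). *Id1* was called without mouse 4 (0.59, adjusted p = 0.0271), without the filter on low counts (0.34, adjusted p = 0.0375), and without the Dcn/Col2a1-led cluster among the other groups (0.82 ± 0.14, adjusted p = 7.82e-05). Without that cluster *Bmpr2* was also called, as lower (-0.39 ± 0.09, adjusted p = 0.00164), and *Acvrl1* was not called (-0.29 ± 0.13, adjusted p = 0.105). The stress genes summed to 1961, 2129, and 2499 CPM in smooth muscle-like cells, against 886 to 1130 CPM in myofibroblast-like, 459 to 834 CPM in pericyte-like, 311 to 768 CPM in Col13a1-type, and 1905 to 5773 CPM in Dcn/Col2a1-led cells, and their part in the *Id3* and *Id1* values was not tested.

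Pericyte-like cells, the mural cells of capillaries, were higher for 4 genes and lower for 1, against 30.9% of all genes. They were 2 clusters that differed in depth. The larger (91 cells) had a median of 7865 UMIs and 9.65% mitochondrial UMIs, and the smaller (42 cells) 741 UMIs and 1.01%. *Eng* measured 772, 836, and 644 CPM, with a log2 fold change of 3.08 ± 0.11 (adjusted p = 4.49e-15), and the 5 EC markers summed to 105 to 301 CPM in these cells, against 9547 to 9920 CPM in ECs. *Bmpr2* was higher by 0.59 ± 0.11 (adjusted p = 0.000314). *Bmp4* (0.69 ± 0.22, adjusted p = 0.0191), *Acvrl1* (0.67 ± 0.17, adjusted p = 0.00524), and *Bmpr1a* (-0.59 ± 0.17, adjusted p = 0.0118) were also called, but without mouse 4 only 2 genes were, without mouse 2 only 3, and *Bmp4* lost its call without mouse 3 as well (adjusted p = 0.0674). For these fits with a mouse left out, the share of all genes called is not given here. *Smad6* gave 12, 0, and 7 UMIs, and the 0 in mouse 3 allows up to 18.5 CPM. It was called, as lower, only with the filter of 500 genes and 10% mitochondrial UMIs (-1.65, adjusted p = 0.0267). *Id1* was called, as lower, only without the filter on low counts (-0.66, adjusted p = 0.0221).

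Col13a1-type fibroblasts were higher for 3 genes and lower for 4, against 32.1% of all genes. *Bmp5* (1.27 ± 0.17, adjusted p = 4.74e-06), *Bmp4* (0.94 ± 0.18, adjusted p = 0.000222), and *Bmpr2* (0.49 ± 0.10, adjusted p = 0.000378) were higher, and *Eng* (-2.01 ± 0.15, adjusted p = 1.04e-09), *Smad6* (-1.39 ± 0.30, adjusted p = 0.00105), *Id3* (-1.0 ± 0.12, adjusted p = 5.99e-07), and *Bmpr1a* (-0.56 ± 0.13, adjusted p = 0.00254) were lower. *Smad6* lost its call without mouse 2 (adjusted p = 0.0591) and *Bmpr1a* without mouse 3 (adjusted p = 0.0561) or mouse 4 (adjusted p = 0.0566).

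The Dcn/Col2a1-led cluster was higher for 3 genes and lower for 3, against 27.6% of all genes. Each of these calls except that of *Eng* was lost in at least 1 fit with a mouse left out. *Id1* measured 60.3, 64.4, and 522 CPM in mice 2, 3, and 4, so its log2 fold change of 1.83 ± 0.43 (adjusted p = 0.00227) came from mouse 4 and was 0.24 (adjusted p = 0.534) without it. The stress genes summed to 1905, 4021, and 5773 CPM in the same cells of the 3 mice, and their part in the *Id1* value was not tested. Without mouse 4, *Id3* (0.40 ± 0.11, adjusted p = 0.00679) fell to 0.22 (adjusted p = 0.279). In that fit 2 genes were called in place of 6, and its share of all genes called is not given here. *Eng* (-1.18 ± 0.16, adjusted p = 4.37e-06) kept its call without any 1 mouse, *Bmpr2* (-0.51 ± 0.11, adjusted p = 0.00153) lost it without mouse 3 (adjusted p = 0.0535), *Bmp5* (-0.73 ± 0.24, adjusted p = 0.0268) without mouse 3 (-0.34, adjusted p = 0.227) or mouse 4 (adjusted p = 0.0746), and *Acvrl1* (0.45 ± 0.15, adjusted p = 0.0309) without any 1 of them (adjusted p = 0.0854 to 0.185). *Bmp4* (0.53 ± 0.20, adjusted p = 0.0518) was called without mouse 3 (0.72, adjusted p = 0.00873) and with the mouse as a block (0.54, adjusted p = 0.0385), among other settings. The cells of this cluster were in each of the other stromal means as well. When they were left out, the members called in the other groups changed in smooth muscle-like cells and in Col13a1-type fibroblasts alone, where *Id1* was then called as higher (0.49 ± 0.17, adjusted p = 0.0267).

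The other pathway genes differed between stromal types as well, and 29 of the 42 could be tested. In myofibroblast-like cells 7 were higher and 4 lower (median log2 fold change 0.11), in smooth muscle-like cells 9 and 8 (0.02), in pericyte-like cells 6 and 9 (-0.28), in Col13a1-type fibroblasts 8 and 9 (-0.06), and in the Dcn/Col2a1-led cluster 13 and 2 (0.59), against medians over all genes between -0.06 and 0.02. The share called was 37.9%, 58.6%, 51.7%, 58.6%, and 51.7% in this order, against 28.2%, 32.6%, 30.9%, 32.1%, and 27.6% of all genes. The target *Id4* was higher in smooth muscle-like cells (3.75 ± 0.18, mean 255 CPM), the ligand *Bmp3* in Col13a1-type fibroblasts (3.27 ± 0.22, mean 213 CPM), and the ligand *Gdf10* in the Dcn/Col2a1-led cluster (6.46 ± 0.28, mean 268 CPM). *Fst*, the activin and BMP antagonist follistatin, was higher in pericyte-like cells (4.5 ± 0.49, mean 80.1 CPM).

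In the alveolar epithelium, AT1-like cells (166 cells, the flat gas-exchange cells) were higher than AT2-like cells (1071 cells, which make surfactant) for 5 of the 7 genes tested and lower for 1, against 43.6% of all genes. *Id3* measured 258, 174, and 256 CPM in AT1-like and 59.0, 49.4, and 68.1 CPM in AT2-like cells (log2 fold change 1.72 ± 0.20, adjusted p = 5.11e-06). The stress genes summed to 1000.1, 614, and 1021 CPM in AT1-like and 420, 349, and 438 CPM in AT2-like cells, with mouse 3 lowest in both, and their part in the *Id3* value was not tested. *Bmpr1a* measured 145, 136, and 149 CPM against 59.2, 70.2, and 63.8 CPM (0.91 ± 0.10, adjusted p = 1.99e-06), and *Bmpr2* 134, 140, and 154 CPM against 77.4, 86.0, and 85.7 CPM (0.53 ± 0.10, adjusted p = 0.000422). The 2 types did not overlap for any of these 3 genes. *Bmp5* went the other way, at 14.0, 8.0, and 5.31 CPM in AT1-like and 27.7, 34.4, and 28.2 CPM in AT2-like cells (-2.03 ± 0.27, adjusted p = 1.94e-05). AT1-like cells were 2 clusters, and 23 of their 24 *Bmp5* UMIs lay in the deeper one (37 cells, median 35994 UMIs), with 1 UMI in the other. The deeper cluster held 1524871 of the 2749682 AT1-like UMIs over the mice, so it weighs heavily in each AT1-like level. How far the other AT1-like calls depend on it was not tested.

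*Bmp4* measured 261, 176, and 235 CPM in AT1-like and 127, 136, and 122 CPM in AT2-like cells (0.56 ± 0.20, adjusted p = 0.0312), and *Smad6* 35.4, 38.0, and 50.8 CPM against 17.3, 23.0, and 23.5 CPM (0.75 ± 0.22, adjusted p = 0.0121). Both lost their call without mouse 4 (adjusted p = 0.279 and 0.215), and *Bmp4* also without mouse 2 (adjusted p = 0.0651) and in DESeq2 (adjusted p = 0.0902). *Id1* was not called (-0.06 ± 0.15, adjusted p = 0.778). Of the other pathway genes 22 could be tested, and 8 were higher and 7 lower in AT1-like cells, with a median log2 fold change of -0.19, against -0.06 over all genes. The share called was 68.2%, against 43.6% of all genes. The secreted antagonist *Nbl1* was higher (5.23 ± 0.19, mean 254 against 5.65 CPM) and the decoy receptor *Bambi* was lower (-2.65 ± 0.24).

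Across the 19 cell types, other genes had patterns close to those of the 10 genes, by Pearson's r of log2(mean CPM + 10) over 13700 genes. These values describe the same 3 libraries and carry no test. *Bmp6* was at most 10.2 CPM in any type (Aplnr-type cells), near the 10 added, so its r rests on low counts. *Bmp4* was nearest to *Spaca6* (r = 0.927), *Yap1*, and *Phldb2*, *Bmp5* to *Etv1* (0.932), *Wnt5a*, and *Msi1*, and *Bmp6* to *Slc26a10* (0.991), *Disp2*, and *Slc29a4*. *Bmpr1a* was nearest to *Tead3* (0.968), *Snhg18*, and *Mapk8ip1*, *Bmpr2* to *Ptprg* (0.962), *Smurf2*, and *Hyal2*, *Acvrl1* to *Cxx1a* (0.945), *Adcy4*, and *Tmcc2*, and *Eng* to *Dock6* (0.960), *Sema6d*, and *Fendrr*. *Smad6* was nearest to *A430105I19Rik* (0.940), *Sema3f*, and *Hyal2*, *Id3* to *Erc1* (0.968), *Zbtb10*, and *Ankrd50*, and *Id1* to *Fzd4* (0.878), *S100a16*, and *Dusp23*, the loosest of the 10. Among the 10 genes themselves, the closest pair was *Bmpr2* and *Smad6* (r = 0.919), followed by *Acvrl1* and *Eng* (0.896). The member closest to *Bmp5* was *Bmpr1a* (0.813).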

How the data were processed

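Whole-lung cells of 3 mice were profiled by droplet scRNA-Seq. The authors deposited UMI counts per gene and cell, made with Cell Ranger 3.0.2 on mm10 per the submitters' processing notes, and these counts were used as deposited. Intervals and limits cover counting error only. Cells under 200 genes or over 20% mitochondrial UMIs were dropped, leaving 2386, 2601, and 2655 cells in mice 2, 3, and 4 with median UMIs of 7119, 4853, and 6453. The study plotted fewer cells than were kept here, so cell type names and shares may differ from it.

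Cells were merged and clustered in Seurat 5.3.0 with sctransform 0.4.2 (3000 variable genes without BMP pathway genes, 30 components, resolution 0.8, 30 clusters, of which 6 stayed unnamed and 1, the Dcn/Col2a1-led cluster, is called by its leading genes), and ECs were clustered again (20 components, 9 sub-clusters). Clusters were named by the mean log2 fold of marker lists that hold none of the 10 genes. These thresholds were chosen with the clusters in view: the first rules, for all cells and for ECs, were changed. Doublet scores marked 156 cells (top scores at 0.8% per 1000 cells), which were kept, since automatic thresholds marked 0.503% to 0.866% of cells.

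UMIs were summed per mouse and type with at least 10 cells and tested with edgeR 4.0.16 (quasi-likelihood, TMM, filterByExpr), with Benjamini-Hochberg adjustment over all genes tested and a threshold of 0.05. Errors of log2 fold changes are SE. P-values measure the spread among the 3 mice within types, pooled over all types of a fit and shared in part across genes. Sums of 1 mouse were taken as independent. Types of 1 mouse share an animal, so the mouse as a block was an alternative. Deviations of same-mouse sums correlated at -0.05 to 0.27 between classes and at 0.03 to 0.14 between EC subtypes. Other alternatives were DESeq2 1.42.0, scaling, filters, clustering, doublets, depth, and leaving out each mouse. The steps were tested on simulated data. Permutation tests used scipy 1.17.1. Genes were named as the 10 members and, per comparison, some of the other pathway genes with the largest changes, of which 1 is not reported here. Members, lists, and cell types were chosen with earlier results of these data known. Promoters were read from RefSeq on GRCm38.p6. *Acvrl1* and *Id1* promoters were not analysed here.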

Additional observations from a re-analysis of the deposited data

Results flagged for a closer look

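The 842 cells of the 6 unnamed clusters (median 841.5 UMIs) entered no comparison, and each of the 10 genes was above the limit that a count of 0 allows there. Pooled levels were 41.9 CPM for *Bmp4*, 12.2 for *Bmp5*, 3.93 for *Bmp6*, 25.8 for *Bmpr1a*, 419 for *Bmpr2*, 233.5 for *Acvrl1*, 334 for *Eng*, 140.6 for *Smad6*, 192.5 for *Id1*, and 618 for *Id3*. The pool mixes unlike clusters. A cluster of 111 dividing cells (median 5834 UMIs) held 1131192 of its 2290801 UMIs. One of these clusters (463 cells, median 843 UMIs) averaged 1295 CPM of *Id3*, 378 of *Id1*, 364 of *Bmpr2*, 300 of *Eng*, 292 of *Smad6*, and 122 of *Acvrl1*, and the 5 EC markers summed to 2384 CPM in it. *Sox7*, *Sox18*, *Epas1*, and *Tmem100* were among its leading genes. Its cells had a median of 0.573% mitochondrial UMIs, against medians of 6.76% to 7.44% in the ECs of the mice. What these cells are was not tested.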

How the results depend on the processing

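Of 1589 values of 103 log2 fold changes under the other settings, 1476 kept their direction and side of the threshold, 57 lost a call, and 22 gained one. The sign differed in 34 values, of which 33, from 11 comparisons of a gene, were not called under either setting, such as *Bmp4* in ECs against epithelial cells (0.11, and -0.16 without mouse 3). The other was *Bmpr1a* in ECs against immune cells, at -0.74 (adjusted p = 0.0472, against 0.0472 to 1 over its settings) without the ECs that had no subtype, a setting chosen after seeing the data, as was leaving out sub-cluster 3 or the Dcn/Col2a1-led cluster. Of 184 counts of members called, 177 stayed within 1.5 times. Between the capillary types the count went from 3 to 1 with a filter of 500 genes and 10% mitochondrial UMIs and with log-normalization. Leaving out 1 mouse gave 1 to 2 genes there, 4 to 6 of 7 in arterial-like ECs, 2 to 4 of 5 in pericyte-like cells, and 2 to 5 of 6 in the Dcn/Col2a1-led cluster. For arterial-like, pericyte-like, and Dcn/Col2a1-led cells no share over all genes is given beside these counts. These counts alone therefore do not separate a general loss of calls from a loss in these genes. The cause was not tested. The mouse as a replicate block gave 9 members called in each class comparison, 4 in Car4-type, 7 in arterial-like, and 7 in the Dcn/Col2a1-led cluster, and changed no calls beyond *Id1* and *Bmp4* there. Over all genes the block called 67.05%, 56.36%, and 69.56% in ECs against epithelial, stromal, and immune cells. It called 15.9% in Car4-type, 24.02% in arterial-like, and 27.62% in Dcn/Col2a1-led cells.

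Without TMM the median log2 fold change of all genes moved from 0.04 to 0.50 for ECs against epithelial cells, from -0.02 to 0.19 against immune cells, from -0.06 to 0.20 in AT1-like cells, from 0.01 to 0.13 in myofibroblast-like cells, from 0.02 to -0.11 in the Dcn/Col2a1-led cluster, and from 0.00 to -0.11 in venous-like ECs. Higher and lower calls moved from 4802 and 4663 to 7442 and 3149 in the first of these, from 4852 and 5033 to 5851 and 3849 against immune cells, from 1915 and 2137 to 2777 and 1206 in AT1-like cells, from 1443 and 1297 to 2224 and 949 in myofibroblast-like cells, from 1778 and 902 to 1473 and 1416 in the Dcn/Col2a1-led cluster, and from 1084 and 829 to 898 and 1139 in venous-like ECs. Over all genes, Car4-type calls were 1298, and 789 with DESeq2, 697 without mouse 3, and 869 without mouse 4. AT1-like calls went from 4052 to 2535 and myofibroblast-like calls from 2740 to 1815 without mouse 4.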

Other observations

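Immune types carried few BMP genes, with exceptions. *Id3* had a mean of 91.4 CPM in B-cell-like cells (109, 82.3, and 83.1 CPM in mice 2, 3, and 4). *Id1* had a mean of 152 CPM in basophil- or mast-like cells (mice 3 and 4 only, with 25 and 13 cells) and 73.7 CPM in neutrophil-like cells. The stress genes summed to 1783 and 1406 CPM in the former and to 21576 to 24230 CPM in the latter. Their part in these *Id1* values was not tested. *Acvrl1* measured 80.4, 60.8, and 71.9 CPM in dendritic-like cells, and *Bmpr2* had a mean of 90.0 CPM in interstitial macrophage-like cells.

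Aplnr-type ECs were 2 sub-clusters. In the first, *Bmp4* averaged 125 CPM, *Bmp6* 15.3, *Smad6* 153, and *Eng* 570. In the second, which carried 165 against 13.2 CPM of the markers of dividing cells, *Bmp4* averaged 70.2 CPM, *Bmp6* 4.80, *Smad6* 298, and *Eng* 811. The clusters were made from these cells, so no test is given. For *Eng* the second sub-cluster lay near arterial-like cells (mean 812 CPM). It also lay nearer than the first to Car4-type cells for *Smad6* (mean 324 CPM) and *Bmp4* (mean 57.0 CPM). The weight of this mix in the subtype calls was not tested.

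At 1000 UMIs per cell, *Id1* was seen in 37.6%, 28.9%, and 24.7% of Aplnr-type cells with an *Id3* UMI in mice 2, 3, and 4, and in 22.1%, 23.4%, and 17.3% of those without. In venous-like cells the shares were 17.4%, 36.8%, and 36.8% with and 41.7%, 46.7%, and 26.7% without, so the mice did not share 1 direction. Nor did they in arterial-like cells, at 55%, 45.8%, and 52.6% with and 35%, 80%, and 36.8% without. Car4-type cells (27 to 35 per mouse) had 22.2%, 30.8%, and 30% with and 22.2%, 28.6%, and 16% without. The shares come from 1 random draw of UMIs per cell.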
